A study of Homo sapiens with 42 samples.

Results

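Neuroendocrine secretory granules are the storage vesicles from which endocrine cells and neurons release peptide hormones on demand. The RNA of 10 genes that encode granule proteins was followed here in 786-O cells, a human clear cell renal cell carcinoma line, out of 60609 genes listed in each file. The genes were PTPRN, PTPRN2, CPE, CHGA, CHGB, SCG2, SCG5, PCSK1, PCSK1N and VGF, found by their symbols, and each had a single row in every library. The set was drawn up around PTPRN and CPE, whose RNA had moved in opposite directions with the disordered region of the HIF-α protein in the second batch. For that reason PTPRN and CPE are described in that batch without a test, and the question tested there is whether the other 8 genes moved with them.

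Hypoxia-inducible factors (HIFs) are α/β dimers that activate genes at low oxygen. Their amino-terminal part is structured, binds DNA and dimerizes, and their carboxy-terminal part is an intrinsically disordered region (IDR) with the activation domains. All groups were made from 786-O cells, which lack VHL, so that HIF-2a is stable in every group including unedited WT cells, and which have no functional HIF-1a. Batch 1 held 27 poly-A RNA-seq libraries, 3 for each of 9 groups. These were WT cells, a HIF-1b KIN clone and a HIF-2a KIN clone with a V5-Halo tag at the endogenous gene, and 6 lines with a V5-Halo-tagged transgene for HIF-1a, HIF-1a R30E, HIF-1aDM (R170A/V191D), HIF-2a, HIF-2a R27E or HIF-2aDM (R171A/V192D). R30E and R27E change DNA binding and DM changes dimerization. The 15 libraries of batch 2 came from WT cells and from 4 lines, with 3 libraries for each group. The lines carry HIF-1a, HIF-2a, or a chimera in which the name before the slash gives the structured part and the name after it the IDR (HIF-2a/1a and HIF-1a/2a). Transgenes were integrated stably under the L30 promoter and act on top of the cells' own HIF-2a. Each KIN line is 1 clone, so that a difference of the clone and a difference of the tag cannot be told apart. The transgene lines were made by puromycin selection, and no group is a selected line without a transgene. Only 1 line per transgene is named, so a difference between transgenes and one between lines cannot be told apart. WT cells also differ from these lines by the selection. In these bulk libraries, fewer cells with a transcript and less of it per cell cannot be told apart. The genotype label of the HIF-2aDM libraries names HIF-1a, while their titles name HIF-2a, and the titles were followed.

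Granule proteins fall into a few roles. Granins (chromogranins and secretogranins: CHGA, CHGB, SCG2 and VGF) are acidic proteins that aggregate in the forming granule and are cut into peptides. Prohormone convertases such as PCSK1 cut the stored precursors, carboxypeptidase E (CPE) trims the cut ends, PCSK1N (proSAAS) inhibits PCSK1, and SCG5 (7B2) is a chaperone of the related convertase PCSK2. PTPRN (IA-2) and PTPRN2 (phogrin) are phosphatase-like proteins that span the granule membrane. Kidney epithelium has no regulated secretory granules of this kind, and the repressor REST is known to hold many of these genes silent outside neuroendocrine cells.

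Between 42377599 and 101186554 reads were counted per library in batch 1 and between 76366799 and 109642159 in batch 2. All 8 markers of the renal carcinoma line were above 3 reads in every library, while the summed markers of blood cells reached at most 0.129 CPM (library-scaled counts) and those of endothelium at most 0.17. Reads of the transgenes count on HIF1A or on EPAS1, the gene of HIF-2a, and were high where the titles place them. HIF1A stood at 2020 to 3250 normalized counts in the 9 HIF-1a, HIF-1a R30E and HIF-1aDM libraries of batch 1, against 231 to 257 in WT cells. It stood at 12800 to 13700 in HIF-1a cells of batch 2, against 261 to 313 in WT cells. EPAS1 stood at 40700 to 67200 in the 9 HIF-2a, HIF-2a R27E and HIF-2aDM libraries of batch 1, against 12600 to 16600 in WT cells, and the HIF-2aDM libraries had only 182 to 210 normalized counts of HIF1A. It stood at 42300 to 42900 in HIF-2a cells of batch 2, against 12000 to 13500 in WT cells. Of the chimeras, HIF-2a/1a had 9560 to 9710 normalized counts of HIF1A and 19500 to 22000 of EPAS1, and HIF-1a/2a had 9080 to 10300 and 48000 to 53900. HIF1A was also higher with HIF-2a, at 667 to 1220 in batch 1 and 840 to 1100 in batch 2. ARNT, the gene of HIF-1b, stood at 827 to 1940 in batch 1 and 3190 to 3940 in batch 2. Normalized counts are reads scaled to the mean library of the batch. The batches also differ in RNA extraction, library kit, read length and sequencing site, so levels are compared within a batch.

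On hg38 (GENCODE v44 coordinates) the genes are PTPRN at chr2:219289623-219309648, PTPRN2 at chr7:157539056-158587823, CPE at chr4:165361194-165498547, CHGA at chr14:92923150-92935285 and CHGB at chr20:5911510-5925353. The others are SCG2 at chr2:223596940-223602361, SCG5 at chr15:32641676-32697098, PCSK1 at chr5:96390333-96434143, PCSK1N at chrX:48831096-48835610 and VGF at chr7:101162509-101165569.

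The 10 genes were far apart in level. On the scale of RPKM (reads scaled to exon length and library size), VGF stood highest in the WT cells of batch 1 at 1.43, then CPE at 0.679, PTPRN2 at 0.301 and SCG5 at 0.249. In WT cells of batch 2 the order on that scale was SCG5 at 1.32, VGF at 1.04, CPE at 0.768 and PTPRN2 at 0.209. PTPRN, CHGA, CHGB, SCG2, PCSK1 and PCSK1N were at or below 0.0248 RPKM in WT cells of both batches, SCG2 in batch 2 being the highest. With HIF-2a, CPE stood at 60.8 in batch 1 and 96 in batch 2, the highest level that any of these genes had in any group. A floor of 3 reads per library was taken as the smallest value that can be read. A gene was called where its edgeR adjusted p was at most 0.01 and its fold difference at least 2. All 10 genes passed the filter of a mean normalized count of at least 0.5 in batch 2, and 8 passed it in batch 1, where CHGA had 1 read and PCSK1N 3 reads over all 27 libraries. Since a gene passes that filter also through the groups in which it is high, the counts below are read against the share of all tested genes that was called.

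**Figure D1:**
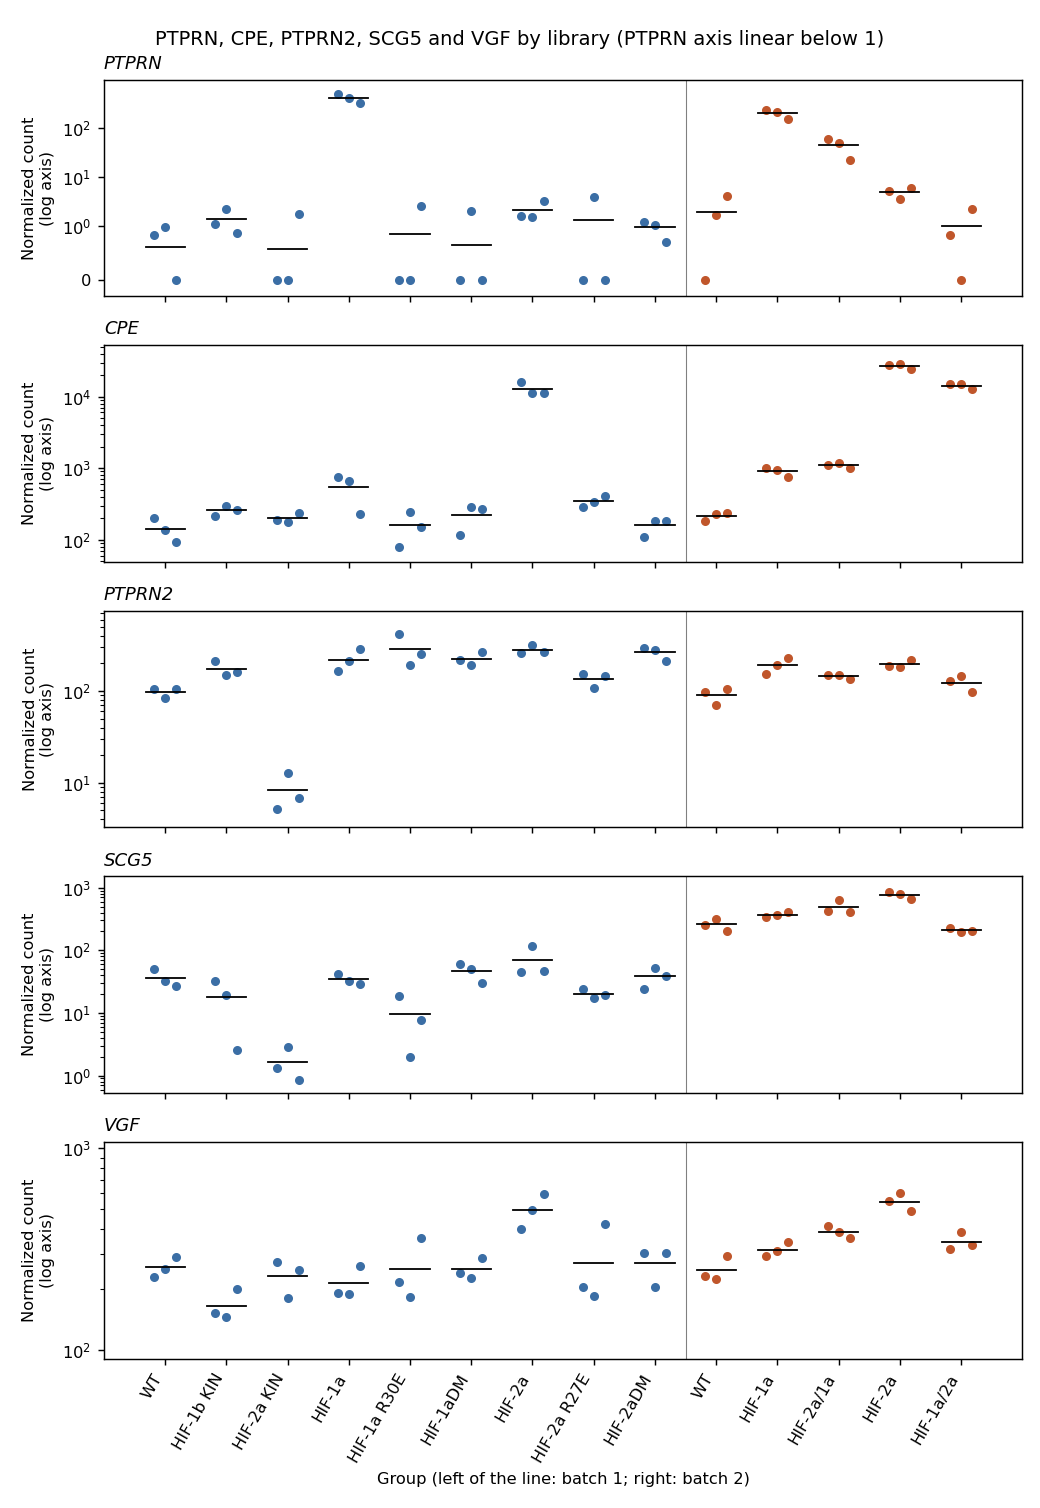
Normalized counts of PTPRN, CPE, PTPRN2, SCG5 and VGF in each library (points) with the group mean (bars), on log axes (the PTPRN axis is linear below 1), for the 9 groups of batch 1 and the 5 groups of batch 2. PTPRN rises off the floor in HIF-1a and HIF-2a/1a cells, CPE is at 11100 normalized counts or more in HIF-2a and HIF-1a/2a cells, and PTPRN2 and SCG5 drop in the HIF-2a KIN clone.

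HIFs bind the hypoxia response element, whose core is ACGTG or GCGTG, and granule genes such as CHGA and VGF are known targets of the cAMP response element TGACGTCA. RefSeq promoter windows on GRCh38.p14 matched 7 of the 10 genes with 9 start sites, and CHGB, SCG2 and PTPRN2 had no entry. In the 250 bases before the start, searched on both strands, 5 of these 7 genes held the hypoxia response element core in at least 1 window. Of all 35116 promoter windows of that length 43.2% hold it, which is a share of windows and not of genes. PCSK1, also with 2 starts, held it in both windows. The cAMP response element was in 3 of the 7, CHGA, PCSK1 and VGF, and in 1.65% of all windows. The windows of PTPRN, with 2 starts, and of SCG5 held neither. They overlap annotated exons of the same gene and are not printed. The windows of CPE and VGF are shown, since CPE had the largest response to HIF-2a of the set and VGF is the granin with reads in every library. They are written on the gene's strand, and capitals mark the hypoxia response element core as read on either strand.
CPE, chr4:165378758-165379007, plus strand: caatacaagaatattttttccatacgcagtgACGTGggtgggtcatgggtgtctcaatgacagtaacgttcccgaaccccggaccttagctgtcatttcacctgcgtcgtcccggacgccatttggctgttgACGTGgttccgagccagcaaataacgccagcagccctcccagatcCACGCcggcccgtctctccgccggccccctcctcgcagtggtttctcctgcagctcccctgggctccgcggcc
VGF, chr7:101165570-101165819, minus strand: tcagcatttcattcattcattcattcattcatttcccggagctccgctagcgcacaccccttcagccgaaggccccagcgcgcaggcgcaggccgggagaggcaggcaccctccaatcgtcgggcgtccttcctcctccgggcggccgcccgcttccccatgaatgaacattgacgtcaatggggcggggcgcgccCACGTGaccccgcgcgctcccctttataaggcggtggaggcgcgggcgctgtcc
The CPE window held ACGTG ending 215 and 114 bases before the start, and GCGTG on the other strand 69 bases before it. The VGF window held the palindrome CACGTG, which reads as ACGTG on both strands and ends 49 bases before the start, and a cAMP response element that ends 72 bases before it. Neither window overlaps an annotated exon. The RefSeq start of CPE lies downstream of its GENCODE v44 gene start, so the CPE window lies inside the gene coordinates given above. A match is a description of the letters and does not show that a factor binds there, and the absence of one says only that these letters are not in the window.

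PTPRN, the granule membrane protein IA-2, was above 4 reads in batch 1 only with HIF-1a. It had 501, 286 and 347 reads in the 3 HIF-1a libraries of batch 1 and at most 4 in any of the other 24. The normalized counts were 473, 397 and 316 with HIF-1a, and 0.826, 0.968 and 0 in WT cells. HIF-1a and WT libraries did not overlap, and the ratio of their pooled reads was 723 (95% counting interval 200 to 5970, edgeR adjusted p = 2.23e-08). The ratio was 382 against HIF-1a R30E (130 to 1860, edgeR adjusted p = 9.07e-08) and 635 against HIF-1aDM (175 to 5250, edgeR adjusted p = 8.64e-08). Such ratios rest on 2 or 3 reads in the lower group, and the intervals cover counting error only. HIF-2a libraries had 1, 1 and 3 reads of PTPRN, and HIF-1a stood 177 times higher than HIF-2a (75.8 to 548, edgeR adjusted p = 2.69e-07).

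In batch 2, PTPRN had 230, 210 and 146 normalized counts with HIF-1a. It had 58, 49.1 and 22.2 with HIF-2a/1a, the chimera that keeps the HIF-1a IDR. With the HIF-2a IDR it had 4.96, 3.46 and 5.87 in HIF-2a cells and 0.829, 0 and 2.17 in HIF-1a/2a cells, against 0, 1.62 and 4.01 in WT cells. Both lines with the HIF-1a IDR were above every other library of the batch. Between these 2 lines the values did not overlap either, the chimera being the lower. These values chose the gene, and no test is given for them. PTPRN overlaps the microRNA gene MIR153-1, which had 0 reads over the 42 libraries, and AC114803.1 on the opposite strand. AC114803.1 had 61 reads over the HIF-1a libraries of batch 1, 4 over those of batch 2, 1 over the HIF-2a/1a libraries and 0 in every other group. Strand was not used in counting, so reads of PTPRN and of this gene cannot be told apart where they overlap.

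CPE, the carboxypeptidase that trims prohormones, rose most with HIF-2a. In batch 1 it had 15900, 11300 and 11100 normalized counts with HIF-2a, and 199, 135 and 92.1 in WT cells. The difference was 6.49 on the log2 scale (SE 0.46, edgeR adjusted p = 7.25e-11), a ratio of means of 89.6. Against the transgenes that should not bind DNA or dimerize the log2 difference of HIF-2a was 5.22 for HIF-2a R27E (edgeR adjusted p = 2.27e-09) and 6.33 for HIF-2aDM (edgeR adjusted p = 1.48e-10). HIF-2a R27E itself had 287, 332 and 406 normalized counts, above all 3 WT libraries, and its log2 difference from WT of 1.27 was not called (edgeR adjusted p = 0.152).

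HIF-1a moved CPE less and less evenly. The HIF-1a libraries of batch 1 had 751, 658 and 231 normalized counts of CPE. The first 2 are well above the WT libraries and the third is close to them. The log2 difference from WT was 1.94 (SE 0.39, edgeR adjusted p = 0.00115). It was no longer called without HIF-1a replicate 1 (log2 difference 1.64) or without WT replicate 3 (1.7). Against HIF-1a R30E it was 1.78 (edgeR adjusted p = 0.00521), where the libraries overlapped, and this call was lost in 4 of 6 fits without a library and with only the groups compared. Against HIF-1aDM it was 1.3 and not called (edgeR adjusted p = 0.065). HIF-2a exceeded HIF-1a by 4.54 on the log2 scale (edgeR adjusted p = 3.33e-08).

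In batch 2, CPE had 183, 225 and 236 normalized counts in WT cells. It had 1020, 935 and 762 with HIF-1a and 1090, 1190 and 1000 with HIF-2a/1a. It had 27400, 29000 and 24100 with HIF-2a and 14800, 14800 and 12600 with HIF-1a/2a. All 6 libraries with the HIF-2a IDR were above 12000 and all 6 with the HIF-1a IDR were below 1200. All 12 were above the WT libraries, so CPE was not lowered by the HIF-1a IDR but raised less. PTPRN, by contrast, stayed near the floor with the HIF-2a IDR. These are the values that chose the gene.

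Among the other 8 genes, 0 were called for the mean effect of the IDR over both structured domains (HIF-2a IDR minus HIF-1a IDR). Of all 28724 genes tested in batch 2, 4.41% were called. At an unadjusted p under 0.05 the count was 2 of 8, CHGA and VGF, and DESeq2 called 0. VGF was higher with the HIF-2a IDR by 0.31 on the log2 scale (95% interval 0.13 to 0.50, edgeR adjusted p = 0.00614), below the fold change of 2 that a call needs. For PTPRN2 the mean IDR effect was -0.10 (-0.38 to 0.18) and for SCG5 -0.11 (-0.32 to 0.10). These intervals and that of SCG2 (-0.65 to 0.96) leave out a mean change of 2-fold in either direction, while those of CHGB (-1.33 to 2.15), CHGA (0.44 to 4.27), PCSK1 (-0.86 to 1.90) and PCSK1N (-3.38 to 3.24) do not. For comparison, the fitted values of the chosen pair were 4.28 for CPE and -5.29 for PTPRN, and the latter rests on libraries at the floor.

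The near-zero mean of SCG5 hid shifts in opposite directions, and that of PTPRN2 hid smaller and less certain differences. SCG5, the chaperone 7B2, had 339, 360 and 416 normalized counts with HIF-1a and 225, 195 and 203 with HIF-1a/2a, so on the HIF-1a structured domain the HIF-2a IDR came with less SCG5 (log2 difference -0.84, 95% interval -1.14 to -0.53, edgeR adjusted p = 2.14e-05). On the HIF-2a structured domain it came with more: HIF-2a/1a had 423, 628 and 414 and HIF-2a had 839, 778 and 653 (log2 difference 0.63, 0.34 to 0.91, edgeR adjusted p = 0.000623). Neither pair of lines overlapped, and neither difference reached 2-fold. Their difference, the interaction of IDR and structured domain, was 1.46 (SE 0.21, edgeR adjusted p = 1.48e-06) and was called.

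PTPRN2, the paralog of PTPRN, showed the same crossing at smaller size. It had 152, 190 and 229 normalized counts with HIF-1a and 127, 146 and 97.6 with HIF-1a/2a, a log2 difference of -0.63 (edgeR adjusted p = 0.0126). It had 150, 149 and 136 with HIF-2a/1a and 186, 181 and 218 with HIF-2a, a log2 difference of 0.43 (edgeR adjusted p = 0.124). The interaction was 1.05 (SE 0.28, edgeR adjusted p = 0.0088). It lost its call in 10 of the 12 fits that left out a library of these 4 lines, with values from 0.895 to 1.1. In the interaction 2 of the 8 genes were called, SCG5 and PTPRN2, where 1.18% of all genes were. For the single exchanges 0 of 8 were called on the HIF-1a structured domain, where 4.65% of all genes were, and 0 of 8 on the HIF-2a structured domain, where 3.19% were. At an unadjusted p under 0.05 the counts were 3 and 3, and DESeq2 called 0 and 0.

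**Figure D2:**
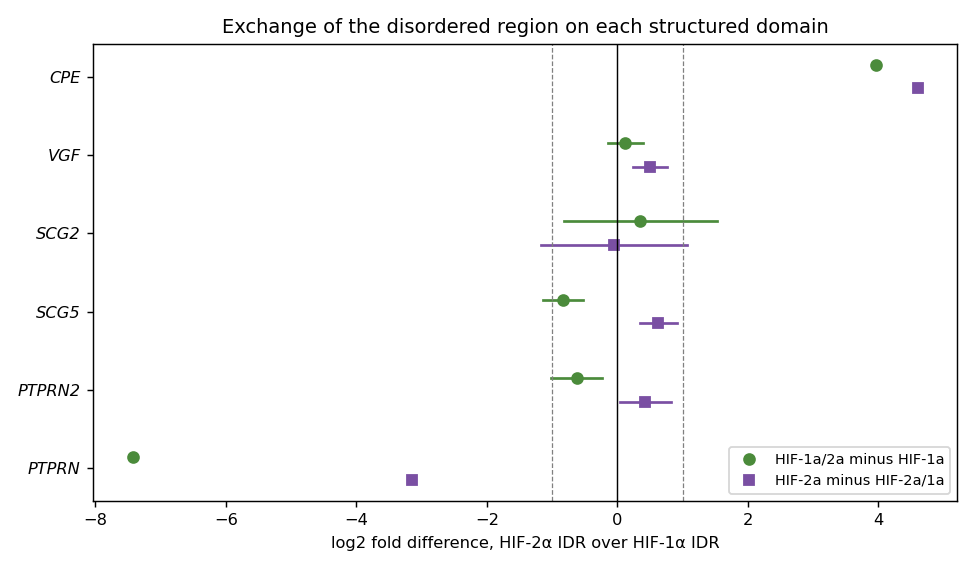
Log2 fold difference between the lines with the HIF-2a IDR and with the HIF-1a IDR, on the HIF-1a structured domain (circles) and on the HIF-2a structured domain (squares), for 6 granule genes in batch 2. Lines are 95% intervals, left out for PTPRN and CPE, which were chosen by these values, and dashed lines mark 2-fold. PTPRN and CPE lie on opposite sides at both structured domains, SCG5 and PTPRN2 change side between them, VGF is above 0 on the HIF-2a structured domain (0.51, interval 0.25 to 0.77), and the intervals of SCG2 span 0.

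The mean effect of the structured domain over both IDRs was called for 2 of the 8 genes, CHGA and SCG5, with 1.04% of all genes called. CHGA had 0 reads in the HIF-1a libraries and passed the filter only through the other transgene lines, so its call is no support for that count. SCG5 was higher with the HIF-2a structured domain by a mean of 1.13 on the log2 scale (SE 0.10, edgeR adjusted p = 1.18e-11). With the HIF-1a IDR its lines overlapped, at 414 to 628 normalized counts in HIF-2a/1a and 339 to 416 in HIF-1a cells. With the HIF-2a IDR they did not, at 653 to 839 in HIF-2a and 195 to 225 in HIF-1a/2a cells. The mean of SCG5 thus covers 2 unlike differences. VGF was higher with the HIF-2a structured domain by a mean of 0.48 (edgeR adjusted p = 0.000117), under the 2-fold limit. PTPRN2 differed by 0.14 (95% interval -0.14 to 0.41).

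SCG5 was raised over WT cells by HIF-2a in batch 2, by 1.54 on the log2 scale (SE 0.15, edgeR adjusted p = 4.17e-12), from 251, 317 and 207 normalized counts in WT cells. The log2 difference was 0.92 with HIF-2a/1a (edgeR adjusted p = 3.38e-06) and 0.52 with HIF-1a (edgeR adjusted p = 0.00713), both under 2-fold, and -0.32 with HIF-1a/2a (edgeR adjusted p = 0.113). In batch 1 the gene had fewer reads and its libraries were spread wider. WT cells had 50.4, 32.9 and 26.7 normalized counts, HIF-1a cells 42.5, 31.9 and 29.1, and HIF-2a cells 45.8, 115 and 46.8. HIF-2a overlapped with WT there (log2 difference 0.91, 95% interval -0.29 to 2.12, edgeR adjusted p = 0.343).

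SCG5 was called lower in the HIF-2a KIN clone, which had 1, 2 and 1 reads. WT cells of that batch had 61, 34 and 38 reads, 24 times more after scaling (95% counting interval 9.16 to 89.4, edgeR adjusted p = 0.000417). HIF-1a R30E had 18.9, 2.01 and 7.68 normalized counts, below every WT library, but was not called (log2 difference -1.98, edgeR adjusted p = 0.0759). SCG5 overlaps an antisense gene, SCG5-AS1, and the readthrough gene ARHGAP11A-SCG5, for which no value is given. The antisense gene, named AC123768.1 in the files, had 1 read over the 42 libraries.

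PTPRN2 also fell in the HIF-2a KIN clone. It had 5.23, 12.8 and 6.76 normalized counts there against 106, 83.2 and 105 in WT cells (log2 difference -3.59, SE 0.36, edgeR adjusted p = 6.82e-08). So 2 of the 8 genes tested in batch 1 were called in this clone, both lower, where 4.14% of all tested genes were called. EPAS1 was also lower in this clone, at 5800 to 6740 normalized counts against 12600 to 16600 in WT cells. The part of HIF-2a in these losses was not tested, since the clone and the tag cannot be told apart.

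Every transgene line of batch 1, and also the HIF-1b KIN clone, which has no transgene, had more PTPRN2 than WT cells in all 3 libraries. HIF-1b KIN had 213, 151 and 161 normalized counts (log2 difference 0.83, edgeR adjusted p = 0.134). HIF-1a had 164, 210 and 286 normalized counts (log2 difference 1.16, edgeR adjusted p = 0.00805) and HIF-2a had 261, 316 and 265 (1.51, edgeR adjusted p = 0.000433). Of the mutants, HIF-1a R30E had 414, 191 and 254 (1.54, edgeR adjusted p = 0.000726) and HIF-2aDM had 296, 280 and 213 (1.42, edgeR adjusted p = 0.00753). HIF-1aDM had 219, 190 and 268 (1.2, edgeR adjusted p = 0.0319), a difference that was called once replicate number entered as a block. HIF-2a R27E had 152, 107 and 147 (0.46, edgeR adjusted p = 0.828).

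HIF-1a and HIF-1aDM could not be told apart for PTPRN2 (log2 difference -0.04, 95% interval -0.61 to 0.53), nor HIF-2a and HIF-2aDM (0.09, -0.48 to 0.66). The HIF-1a call was lost in 5 of the 6 fits that left out a library, and so was that of HIF-2aDM, while that of HIF-1a R30E was lost without its replicate 1. In batch 2 the gene was called higher with HIF-1a (1.07, edgeR adjusted p = 3.64e-05) and HIF-2a (1.11, edgeR adjusted p = 1.2e-05). With HIF-2a/1a it stood at 0.68 (edgeR adjusted p = 0.00965), under 2-fold, and with HIF-1a/2a at 0.45 (edgeR adjusted p = 0.0886). Both calls of batch 2 were lost without WT replicate 2, at 0.919 and 0.954, and that of HIF-1a also without its replicate 3. PTPRN2 overlaps 10 other annotated genes, 7 of them on the opposite strand, so a part of its reads is uncertain.

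VGF, a granin-like neuropeptide precursor, lay between 145 and 357 normalized counts in the WT, KIN, HIF-1a, HIF-1a R30E, HIF-1aDM and HIF-2aDM libraries of batch 1 and reached 420 in HIF-2a R27E. HIF-2a had 398, 496 and 594, above the WT libraries at 229, 253 and 290. The log2 difference of 0.95 was under 2-fold (edgeR adjusted p = 0.0257), and DESeq2 called it at 1.01. HIF-2a exceeded HIF-1a, which had 191, 190 and 260, by 1.22 (edgeR adjusted p = 0.00916), a call that was lost in each of the 6 fits without a library. In batch 2 VGF was called with HIF-2a. There it had 548, 597 and 488 normalized counts against 232, 226 and 291 in WT cells (log2 difference 1.13, SE 0.13, edgeR adjusted p = 1.07e-09). Its order was HIF-2a, HIF-2a/1a at 412, 383 and 357, HIF-1a/2a at 316, 385 and 330, HIF-1a at 292, 308 and 344, and WT. HIF-2a did not overlap with any other group, while HIF-2a/1a overlapped with HIF-1a/2a and HIF-1a/2a with HIF-1a. The lowest HIF-1a library was just above the highest WT library, and that difference was not called (log2 difference 0.34, edgeR adjusted p = 0.0624).

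**Figure D3:**
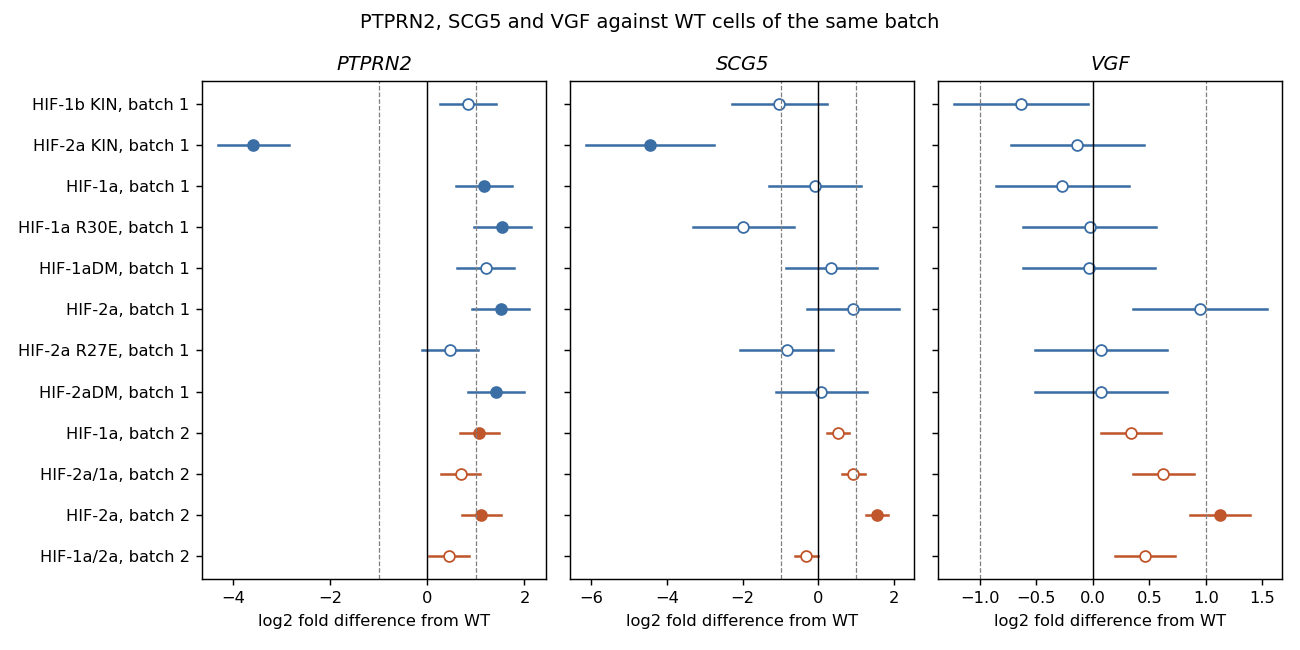
Log2 fold difference from the WT cells of the same batch for PTPRN2, SCG5 and VGF in the 8 groups of batch 1 (blue) and the 4 lines of batch 2 (orange), with 95% intervals. Filled points were called, and dashed lines mark 2-fold. PTPRN2 and SCG5 were called lower in the HIF-2a KIN clone, and all 3 genes were called higher with HIF-2a in batch 2.

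The granins CHGA and CHGB had almost no reads in batch 1 and a few in batch 2. CHGA had 0 reads in all 6 WT and HIF-1a libraries of batch 2, 5, 21 and 16 with HIF-2a/1a, 9, 3 and 12 with HIF-2a, and 0, 3 and 11 with HIF-1a/2a. Against WT libraries at 0 and a floor of 3 reads per library, CHGA was at least 5.02-fold higher with HIF-2a/1a (edgeR adjusted p = 0.000678). It was at least 3.18-fold higher with HIF-2a (edgeR adjusted p = 0.00154) and at least 1.86-fold with HIF-1a/2a (edgeR adjusted p = 0.00763). Such folds divide the group mean by the floor and leave out the spread between libraries. The calls used the fitted log2 difference instead, which was 5.37 for HIF-1a/2a. The HIF-1a/2a libraries overlapped with WT, and that call was lost in 4 of 6 fits without a library. CHGA was also the other gene called for the mean effect of the structured domain (edgeR adjusted p = 0.00269). With the HIF-2a IDR the 2 structured domains overlapped, and with the HIF-1a IDR the HIF-1a libraries had 0 reads.

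CHGB had 0 reads in the WT libraries of batch 2 and 1, 0 and 4 with HIF-1a. It had 1, 2 and 16 with HIF-2a/1a, 15, 6 and 9 with HIF-2a and 0, 3 and 2 with HIF-1a/2a. It was at least 3.89-fold higher with HIF-2a than in WT cells (edgeR adjusted p = 0.0017), a call lost without WT replicate 2. With HIF-2a/1a it was at least 2.48-fold higher (edgeR adjusted p = 0.00876), a value that rests on replicate 3 and was lost in 4 of 6 fits without a library. In batch 1 CHGB had at most 5 reads in any library, and 0 in all 3 HIF-2a libraries.

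Genes of endocrine cells outside the set had reads in the same libraries. GCG, the glucagon precursor, NEUROD1 and INSM1, transcription factors of endocrine cells, and the convertase PCSK2 were chosen here from the gene lists after their values were seen. In batch 2 all 4 had 0 reads in the WT libraries, and the HIF-1a libraries had 1 read of GCG and none of the others. GCG had 6, 32 and 2 reads with HIF-2a/1a, 13, 12 and 10 with HIF-2a, and 0, 5 and 20 with HIF-1a/2a. HIF-1a/2a replicate 1 had 0 reads of these 4 genes and of CHGA, CHGB and PCSK1N. In batch 1 they summed to 5 reads for GCG, 3 for NEUROD1, 1 for INSM1 and 0 for PCSK2 over 27 libraries. Of the 8 neuroendocrine markers, a list that also holds CHGA, NEUROD1 and INSM1, 2 markers (NCAM1 and SYP) were above the floor in every library. The summed level of all 8 was 68.6 to 82.1 CPM in WT cells of batch 2, 65.3 to 70.3 with HIF-1a, 64.3 to 71.4 with HIF-2a/1a, 75.9 to 80.1 with HIF-2a and 47.4 to 52 with HIF-1a/2a. Better-counted markers of that list went in different directions with HIF-1a/2a. SYP was at 75.7 ± 9.22 normalized counts in WT cells and 116 ± 25.3 with HIF-1a/2a, which was not called (log2 difference 0.61, edgeR adjusted p = 0.0501). DDC fell from 22.7 ± 3.32 normalized counts in WT cells (SD, n = 3) to 6.43 ± 4.2 (log2 difference -1.85, edgeR adjusted p = 0.00768), and NCAM1 was at 6600 ± 612 and 4380 ± 271 (-0.59, edgeR adjusted p = 1.15e-10, under 2-fold). The part of these genes in the counts of CHGA and CHGB was not tested.

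SCG2 (secretogranin II) was above the floor in all 15 libraries of batch 2 and in 4 of the 27 of batch 1. Its normalized counts were 3.85, 7.28 and 6.01 in WT cells, 22.5, 10.3 and 22.2 with HIF-2a/1a and 18.8, 13.9 and 20 with HIF-2a. HIF-1a had 8.68, 12.6 and 8.53 and HIF-1a/2a had 14.1, 13.1 and 10.8. All 4 lines were above WT in every library, yet none was called. The log2 difference was 1.64 with HIF-2a/1a (edgeR adjusted p = 0.0404), 1.59 with HIF-2a (edgeR adjusted p = 0.035), 0.77 with HIF-1a (edgeR adjusted p = 0.436) and 1.13 with HIF-1a/2a (edgeR adjusted p = 0.159). PCSK1 had at most 8 reads in any library. In batch 2 its normalized counts were 0.963, 5.66 and 4.01 in WT cells and 6.94, 6.93 and 8.22 with HIF-2a, which did not overlap and were not called (log2 difference 1.01, 95% interval -0.91 to 2.93, edgeR adjusted p = 0.464). PCSK1N had at most 4 reads in a library and passed 3 in a single HIF-2a/1a library. No difference in these 2 genes was detectable by the test at this depth.

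**Figure D4:**
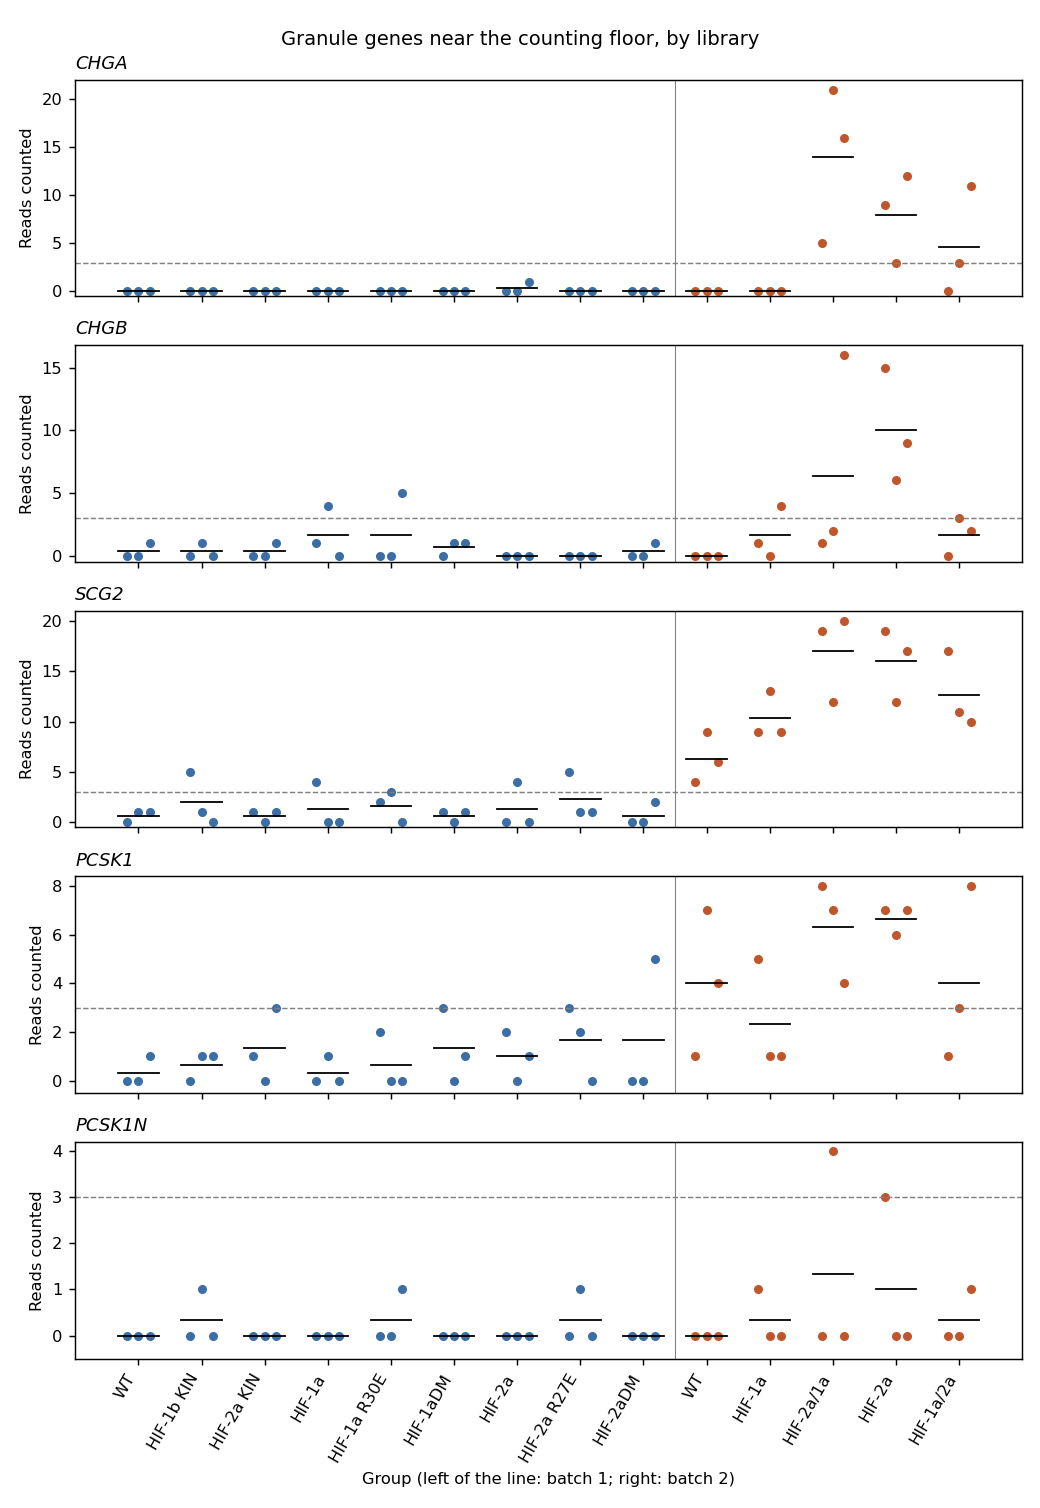
Reads counted for CHGA, CHGB, SCG2, PCSK1 and PCSK1N in each library (points) with the group mean (bars), and the floor of 3 reads (dashed line). In batch 1 nearly all libraries are at or under the floor. In batch 2 CHGA reaches 21 reads with HIF-2a/1a and stays at 0 in WT and HIF-1a cells.

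Of the 8 genes other than PTPRN and CPE, 5 were called against WT with HIF-2a, CHGA, CHGB, VGF, PTPRN2 and SCG5, all higher, where 7.58% of all genes were called. The count fell to 3 without WT replicate 2. HIF-1a called 1 of 8 (PTPRN2, with 4.39% of all genes), HIF-2a/1a 2 of 8 (CHGA and CHGB, 3.49%) and HIF-1a/2a 1 of 8 (CHGA, 7.78%). The single genes called with HIF-1a and with HIF-1a/2a were each lost in some of the fits without a library. These 4 comparisons share the same WT libraries, and the calls of CHGA and CHGB rest on 21 or fewer reads per library. Without a read in the WT libraries, CHGA and CHGB passed the filter through the other lines and could only be called higher. Their calls therefore say nothing on direction, while VGF, PTPRN2 and SCG5 had reads in every WT library. The difference between these counts was not tested.

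In batch 1, where the 8 comparisons also share their WT libraries, the count was 3 of 8 tested genes with HIF-1a (PTPRN, CPE and PTPRN2, all higher, with 3.79% of all genes called) and 2 of 8 with HIF-2a (CPE and PTPRN2, 5.72%). The HIF-1a count was 1 or 2 in all 6 fits without a library, and it was 1 without WT replicate 3. PTPRN and CPE were chosen by their response in batch 2, which also had HIF-1a and HIF-2a lines. Their calls here are therefore no support for the set, and PTPRN2 was the only other gene called with HIF-1a or with HIF-2a. HIF-1a R30E called 1 of 8 (2.61%) and HIF-2aDM 1 of 8 (0.474%), in both cases PTPRN2. HIF-1b KIN called 0 of 8 (1.38%), with 3 at an unadjusted p under 0.05 and 0 by DESeq2. HIF-1aDM called 0 of 8 (0.457%), with 1 unadjusted and 1 by DESeq2, PTPRN2. HIF-2a R27E called 0 of 8 (0.496%), with 1 unadjusted, CPE, and 0 by DESeq2.

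Between transgenes, 2 of 8 were called for HIF-1a over HIF-1a R30E (PTPRN and CPE, 1.75% of all genes, with CPE lost in 4 of 6 fits without a library) and 1 for HIF-1a over HIF-1aDM (PTPRN, 1.37%). CPE was the only call for HIF-2a over HIF-2a R27E (3.63%) and over HIF-2aDM (3.96%), and PTPRN2 joined it against HIF-2a R27E under DESeq2 and under the replicate block, with log2 differences of 1.12 and 1.07. HIF-2a against HIF-1a called 3 of 8, CPE and VGF higher and PTPRN lower (2.4%). This count was 2 in each of the 6 fits without a library, with VGF lost. The genes left, CPE and PTPRN, were chosen by their IDR response in batch 2, so this count says nothing on the set beyond that choice. In the main fit every call against a mutant transgene was also PTPRN or CPE.

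The response to HIF-1a and to HIF-2a was measured in both batches, and the joint fit tested 26763 genes for a difference between them. For HIF-1a, 0 of the 7 tested genes among the 8 were called (0.00374% of all genes, which is 1 gene), with 0 at an unadjusted p under 0.05 and 0 by DESeq2. CHGA, 1 of these 7, had 0 reads in all WT and HIF-1a libraries of both batches, so it could not be called. For HIF-2a, 0 of the same 7 were called (0% of all genes), with 1 unadjusted, CHGB, and 0 by DESeq2. There CHGA could not be estimated (log2 difference 3.3, SE 5060), and CHGB stood at 8.03 (95% interval 1.23 to 14.8). For genes this near the floor, a count of 0 does not show that the batches are alike. Over all genes that contrast had 2855 at an unadjusted p under 0.05, and DESeq2 called 43. The HIF-2a response differed between batches by 0.50 for SCG5 (95% interval -0.37 to 1.37), by 0.04 for VGF (-0.50 to 0.57) and by -0.55 for PTPRN2 (-1.22 to 0.13) on the log2 scale. These intervals leave room for a change of 2-fold in SCG5 and PTPRN2. PCSK1N did not pass the filter of the joint fit.

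Other genes of the regulated secretory pathway were taken from lists. For the mean IDR effect the counts of each list are to be read against the 4.41% of all tested genes that were called, and the medians are fitted values that include genes near the floor. Of 15 other processing and sorting genes 11 were tested in batch 2, and 2 were called for the mean IDR effect (SORL1 higher and CPM lower with the HIF-2a IDR), with a median log2 effect of 0.05 against 0.02 over all genes. SORCS2, a sorting receptor, rose from 75.2 ± 26.1 normalized counts in WT cells (SD, n = 3) to 795 ± 12.9 with HIF-1a and 1370 ± 151 with HIF-2a. SORL1, another sorting receptor, rose from 38.6 ± 10.2 to 158 ± 14.6 and 275 ± 11.6. CPM, a membrane carboxypeptidase of the family of CPE, had 24.7 ± 12.5 in WT cells and 1.28 ± 1.13 with HIF-1a/2a (log2 difference -4.08, edgeR adjusted p = 2.27e-05). HID1, needed for granule formation, rose from 43.6 ± 14.3 to 118 ± 36 with HIF-2a (log2 difference 1.43, edgeR adjusted p = 7.59e-05).

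Among the constitutive proprotein convertases, which cut precursors outside granules, PCSK6 was higher with the HIF-2a IDR by 2.67 on the log2 scale, with 565 ± 94.2 normalized counts in HIF-2a and 642 ± 72.2 in HIF-1a/2a cells against 101 ± 12.4 in HIF-1a cells (edgeR adjusted p = 6.18e-22). PCSK4 was called higher than in WT cells with HIF-1a, HIF-2a and HIF-1a/2a, at log2 differences of 1.65, 2.47 and 1.49.

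Of 30 regulated exocytosis genes 27 were tested, and 6 were called for the mean IDR effect, DOC2A, SYT7 and UNC13A higher and CADPS2, RAB3D and SV2A lower with the HIF-2a IDR, with a median of 0.13. DOC2A, a calcium sensor of vesicle release, stood at 12 ± 5.04 normalized counts in WT cells, 1.71 ± 0.518 with HIF-2a/1a, 111 ± 22.6 with HIF-2a and 358 ± 55.1 with HIF-1a/2a. Its paralog DOC2B fell from 52.4 ± 3.23 in WT cells to between 1.11 ± 1.91 and 3.5 ± 2.88 in all 4 lines, and its mean IDR effect was not called (edgeR adjusted p = 0.684). SYT7, a synaptotagmin of slow granule release, reached 93.2 ± 19 with HIF-1a/2a from 2.94 ± 1.95 in WT cells. On the HIF-2a structured domain it was alike with either IDR, at 14.9 ± 3.98 with HIF-2a/1a and 15.3 ± 7.3 with HIF-2a. SV2A was at 5.89 ± 3.97 with HIF-1a/2a and 45.1 ± 6.87 with HIF-1a, but at 21.7 ± 5.87 with HIF-2a/1a and 29.4 ± 17.3 with HIF-2a. The mean IDR effects of SYT7 and SV2A thus rest on the HIF-1a/2a line. BAIAP3, a priming factor of dense-core vesicles, reached 235 ± 48.6 with HIF-1a from 27.7 ± 2.46.

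Of 32 peptide hormone precursors 20 were tested and 1 was called for the mean IDR effect, with a median of 0.20. This was NPPB, the precursor of brain natriuretic peptide, with 1.14 ± 1.22 normalized counts in WT cells, 7.37 ± 5.33 with HIF-1a, 91.5 ± 8.22 with HIF-2a and 127 ± 29.2 with HIF-1a/2a (log2 effect 3.85, edgeR adjusted p = 8.39e-15). NMU (neuromedin U) rose from 437 ± 41.8 to 1040 ± 36.6 with HIF-2a, and UCN2 (urocortin 2) from 795 ± 78.7 to 1980 ± 268 with HIF-1a/2a. Of 16 neuroendocrine transcription factors and REST-complex genes 12 were tested, and 0 were called for the mean IDR effect, with a median of 0.13. SRRM3, a splicing factor of neurons and endocrine cells, rose from 127 ± 20.3 to between 319 ± 20 and 580 ± 97.4 in the 4 lines. RCOR2, a REST corepressor, rose from 5.61 ± 1.49 to between 21.8 ± 8.15 and 75.9 ± 38.2. REST itself stood at 2050 ± 235 in WT cells and was not called in any of the 4 comparisons with WT (log2 differences from -0.29 to 0.00).

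The genes most like PTPRN and CPE over the 42 libraries lay outside the set. The measure was Pearson's r of log2 CPM after subtracting the WT mean of the batch, among 15217 genes, and libraries of a group share their line and batch. For PTPRN they were PLA2G4D (r = 0.91), SERPING1 (0.906) and ALDOC (0.903), for CPE they were ROR2 (0.979), IGFBP3 (0.966) and AC005906.2 (0.966). In batch 2 PLA2G4D averaged 72.4 normalized counts with HIF-1a, 27.9 with HIF-2a/1a and 4.13 with HIF-2a, and ROR2 averaged 1260, 1380 and 9960.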

How the data were processed

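RNA of 786-O lines was sequenced as 27 libraries in batch 1 and 15 in batch 2. The authors aligned reads to hg38 with STAR, sorted and indexed them with SAMtools 1.9 and counted unique reads per GENCODE v32 gene with HTSeq, without strand. The submitters' processing notes give STAR 2.7 and HTSeq 0.11.1, and the study's methods give other versions of both. The deposited values are raw counts per gene for each library, described by the methods as biological replicates, and p-values measure the spread between these 3 libraries per group.

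Counts were scaled by TMM and tested with edgeR 4.0.16 (quasi-likelihood, R 4.3.3), all groups of a batch in 1 fit, after a filter of a mean normalized count of at least 0.5. Adjusted p-values are Benjamini-Hochberg values over all genes tested. Calls needed an adjusted p of at most 0.01 and a fold of at least 2. The responses of both batches were compared in 1 joint fit. A fold against libraries at 0 used a floor of 3 reads per library, and intervals at 95% on pooled reads cover counting error only. Exon lengths and positions came from GENCODE v44.

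Alternatives were DESeq2 1.42.0, its size factors, no filter, only the groups compared, a replicate block and leaving out each library. The replicate number paired groups where every same-number correlation of deviations was over 0.1, as for 21 of the 36 pairs of groups in batch 1. Among these were 5 of the 8 groups of batch 1 with WT, HIF-2a with HIF-2a R27E and HIF-2a with HIF-1a. The main fit had no term for replicate number, so its p-values in batch 1 leave this pairing out. The replicate block is given only as an alternative. In batch 2 it paired none. The members and gene lists were chosen with earlier results of these data known. From each other list, up to 4 called genes were named by a fixed rule on size of change. GCG, NEUROD1, INSM1, PCSK2, DDC, NCAM1, SYP, SV2A and REST were chosen after their values were seen. A result on the list of constitutive convertases is not reported here.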

Additional observations from a re-analysis of the deposited data

Results flagged for a closer look

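The effect of the IDR on SCG5 and on PTPRN2 differed between the structured domains, by the interaction term of the edgeR fit in batch 2. The difference was 1.46 on the log2 scale for SCG5 (edgeR adjusted p = 1.48e-06), with the HIF-2a IDR lower in all 3 libraries on the HIF-1a structured domain and higher in all 3 on the HIF-2a structured domain. It was 1.05 for PTPRN2 (edgeR adjusted p = 0.0088), with the same directions, and this call was lost in 10 of 12 fits without a library.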

How the results depend on the processing

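The number of granule genes called moved as follows. DESeq2 and the replicate block each gave 1 in place of 0 for HIF-1aDM against WT and 2 in place of 1 for HIF-2a against HIF-2a R27E, and the block gave 1 in place of 2 for HIF-2a/1a against WT. DESeq2 also gave 3 in place of 2 for HIF-2a against WT in batch 1. Without a filter the count was 1 in place of 0 for HIF-2a R27E against WT and for the IDR exchange on the HIF-1a structured domain, and 2 in place of 1 for HIF-1a against HIF-1aDM. With only the groups compared it was 2 in place of 3 for HIF-1a against WT in batch 1, 1 in place of 2 for HIF-1a against HIF-1a R30E and 0 in place of 1 for HIF-1a/2a against WT. Without 1 library, counts ran from 1 to 2 for HIF-1a against WT in batch 1, against HIF-1a R30E and against HIF-1aDM, for HIF-2a against HIF-2a R27E and for the interaction. They ran from 0 to 1 for HIF-1a R30E, HIF-2aDM, HIF-1a of batch 2 and HIF-1a/2a against WT and for the IDR exchange on the HIF-1a structured domain, from 1 to 3 for HIF-2a/1a, 2 in place of 3 in all 6 fits for HIF-2a against HIF-1a and from 3 to 5 for HIF-2a of batch 2. The cause was not tested. No called value changed sign.

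Over all genes, the calls went from 107 to 204 with DESeq2, 207 with the block and 208 without a filter for HIF-1aDM, and from 111 to 200, 209 and 209 for HIF-2aDM. For HIF-2a R27E they went from 116 to 195, 213 and 215, and to 3 with only the groups compared, a setting that also took HIF-1b KIN from 322 to 195 and HIF-2a against HIF-2a R27E from 849 to 532. For the batch difference they went from 0 to 43, 157 and 86 with HIF-2a, and from 1 to 11 with the block and 6 without a filter with HIF-1a. Depth limits CHGA, CHGB, PCSK1 and PCSK1N, which had at most 21 reads in any library.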
